A study of Mus musculus with 40 samples.

Results

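The regions described here are 3 windows of the mouse genome chosen for their clusters of KRAB zinc finger genes, on chr2 (174900000 to 177900000), chr4 (145000000 to 147900000) and chr13 (65000000 to 68000000), all in build mm9. Every 100 bp tile of the deposited methylation table that lay inside a window was a member, which gave 3033 of 971845 tiles. The chr2 window held 511 tiles, the chr4 window 1501 and the chr13 window 1021, and the rest of the autosomes 929922. The choice used position only and no methylation value.

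Levels come from 24 libraries of 8 groups made by reduced representation bisulfite sequencing (RRBS), in which restriction fragments rich in CpG are sequenced after bisulfite treatment. Follicular B cells, a mature resting stage, and pro-B cells, the early stage at which heavy-chain genes rearrange, were each taken from mice with both Tet2 and Tet3 knocked out (DKO), from Tet2KO mice, from Tet3KO mice and from wild-type (WT) mice. All mice were C57/bl, and per the labels the knockouts of Tet2 and Tet3 were inducible and used the MB1 promoter, which is active in B-lineage cells. At each stage, DKO libraries are labelled as 2 from males of 7 weeks and 1 from a female of 6 weeks, Tet2KO as 3 from females of 6 or 8 weeks, Tet3KO as 2 from males and 1 from a female of 7 weeks, and WT as 2 from males of 8 and 6 weeks and 1 from a female of 6 weeks. Tet2KO and sex therefore cannot be told apart fully. Tet3KO cannot be told apart from an age of 7 weeks, which no WT library had, and DKO only in part. Sex and age differ among the 3 WT libraries of a stage, so these come from 3 mice, and each knockout group of 3 libraries holds at least 2. The labels do not identify the mice beyond that, nor say whether both stages came from the same ones, so p-values measure the spread between libraries, part of which may be technical. Tet2 and Tet3 themselves were not examined, since the tiles carry no gene names and the annotation at hand was of another build.

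KRAB zinc finger proteins are a large family of DNA-binding repressors. Their KRAB domain binds TRIM28 (KAP1), which brings in the histone methyltransferase SETDB1, and many of them silence retrotransposons. The genes lie in clusters that grow by tandem duplication, so that neighbours carry near-identical sequence, and the clusters themselves are often rich in H3K9me3. TET2 and TET3 oxidise 5-methylcytosine, a step towards its removal.

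Whether the mm9 windows hold these genes could be checked by names and neighbours only. In the RefSeq annotation of GRCm38.p6, the largest run of genes named Zfp held 9 on chr2 (Zfp968 to Zfp931, among 26 protein-coding genes), 16 on chr4 (Zfp990 to Zfp933, among 18) and 24 on chr13 (Zfp640 to Zfp273, among 31). Which of them lie inside the windows was not examined, since the builds differ. A promoter, taken as 250 bases before to 50 after the start, was found for 9 of 9, 12 of 16 and 21 of 24 of these genes, 46 promoters in all. The promoters below show how alike neighbours are, which limits how surely a short read can be placed. They are from RefSeq (GRCm38.p6, not the build of the tiles), printed 5′ to 3′ on the gene's strand, and capitals mark each CCGG, the site at which RRBS usually cuts. Zfp966 lies at chr2:175931051-175931350 (minus strand), Zfp970 at chr2:177464492-177464791 (plus strand), Zfp600 at chr4:146156577-146156876 (plus strand), Zfp456 at chr13:67375714-67376013 (minus strand) and Zfp429 at chr13:67399718-67400017 (minus strand).
Zfp966: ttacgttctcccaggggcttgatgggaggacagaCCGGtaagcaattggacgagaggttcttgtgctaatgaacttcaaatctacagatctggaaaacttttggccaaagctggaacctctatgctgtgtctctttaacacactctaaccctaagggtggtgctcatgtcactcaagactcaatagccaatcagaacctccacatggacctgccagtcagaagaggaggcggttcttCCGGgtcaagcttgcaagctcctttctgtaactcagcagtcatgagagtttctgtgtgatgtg
Zfp970: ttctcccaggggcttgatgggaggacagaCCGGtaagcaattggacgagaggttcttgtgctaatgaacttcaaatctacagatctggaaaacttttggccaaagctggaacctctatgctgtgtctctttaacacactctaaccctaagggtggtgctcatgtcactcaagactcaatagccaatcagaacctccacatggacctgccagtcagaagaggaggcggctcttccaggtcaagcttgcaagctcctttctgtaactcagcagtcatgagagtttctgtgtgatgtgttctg
Zfp600: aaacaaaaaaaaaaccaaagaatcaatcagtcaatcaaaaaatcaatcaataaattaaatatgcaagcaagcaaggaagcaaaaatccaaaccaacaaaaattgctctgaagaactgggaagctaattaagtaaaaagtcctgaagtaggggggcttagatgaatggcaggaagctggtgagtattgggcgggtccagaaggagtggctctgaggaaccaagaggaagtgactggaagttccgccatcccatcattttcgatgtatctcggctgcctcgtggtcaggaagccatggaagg
Zfp456: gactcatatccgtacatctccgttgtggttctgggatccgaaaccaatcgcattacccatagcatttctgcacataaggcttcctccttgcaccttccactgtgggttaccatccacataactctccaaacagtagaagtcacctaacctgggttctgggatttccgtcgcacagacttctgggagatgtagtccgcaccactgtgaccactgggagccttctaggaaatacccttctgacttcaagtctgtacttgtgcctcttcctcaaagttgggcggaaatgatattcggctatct
Zfp429: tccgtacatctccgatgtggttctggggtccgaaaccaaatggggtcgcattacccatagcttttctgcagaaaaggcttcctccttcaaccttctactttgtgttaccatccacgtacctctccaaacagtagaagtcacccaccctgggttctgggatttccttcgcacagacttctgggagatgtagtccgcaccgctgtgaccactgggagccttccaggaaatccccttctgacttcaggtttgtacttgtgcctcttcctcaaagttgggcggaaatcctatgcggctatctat

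The promoter of Zfp967 was identical to that of Zfp966, with 0 differences over 300 bases, and that of Zfp970 differed from it by 12 edits (96.0% identity) and held 1 CCGG in place of 2. Identity was taken end to end over stretches of 300 bases, so an offset between the stretches counts as edits and lowers it. Most of the 12 edits are such an offset, so Zfp966 and Zfp970 are more alike over their shared part than 96.0%. Among the Zfp-named genes of the chr4 run the most alike pair was Zfp600 and Zfp979 (94.7% identity), and in the chr13 run it was Zfp456 and Zfp429 (87.0%). A stretch of 40 bases shared with the promoter of another gene was found in 88.9% of the chr2 promoters, 73.3% of the chr4 promoters and 31.8% of the chr13 promoters, against 9.14% of all 32851 promoters in the table. CCGG, which reads the same on both strands, was present in 8 of 9 chr2 promoters, 3 of 15 chr4 promoters and 14 of 22 chr13 promoters, together 54.3%, against 52.8% of all promoters. How the submitters placed reads with more than 1 match was not given in the sources used here, so a tile's level in these windows may mix copies.

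The windows were covered unevenly. The chr4 window held 518 tiles per Mb, the chr13 window 340 and the chr2 window 170. No library gave a value for 16.05% of the chr2 tiles, 12.8% of the chr4 tiles and 21.8% of the chr13 tiles, against 17.7% of tiles in the rest of the autosomes. Pro-B Tet3KO library 8 had a value at 98 window tiles only, and at 24600 tiles of the table, where the other 23 libraries had 273728 to 631415. It was left out of the means over windows, so pro-B Tet3KO rests there on 2 libraries, both labelled as from males of 7 weeks. The labels do not show whether these 2 come from different mice. The read depth behind a value was unknown, because the table holds fractions without counts, and the number of tiles with a value served as a rough measure of it. Library means were taken over the tiles with a value in all 23 other libraries, which were 94 on chr2, 302 on chr4, 154 on chr13 and 128046 in the rest of the autosomes.

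Tiles of intermediate methylation, with a mean of 20 to 80% over the 23 libraries, made up 21.3% of the chr2 window, 23.5% of the chr4 window and 17.5% of the chr13 window, against 10% of the rest of the autosomes. The 3 windows differed in the other classes. Of chr2 tiles 74.5% lay under 20% and 4.26% over 80%, whereas the chr4 window had 51.7% under and 24.8% over and the chr13 window 50.6% under and 31.8% over. The rest of the autosomes had 66.6% under 20% and 23.4% over 80%. Low tiles also had a wider spread in the windows, though they were not matched for level with those of the rest. The median SD within a group of tiles under 20% was 4.73 percentage points on chr2, 2.92 on chr4 and 2.61 on chr13, against 0.966 in the rest of the autosomes. For intermediate tiles it was 11.7, 10.1 and 16.95 points in the windows, against 13.1 in the rest. These shares and spreads are descriptions of the same libraries and were not tested.

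Methylation of all 3 windows was higher in follicular B cells than in pro-B cells. Averaged over the 4 genotypes, the level rose by 3.60 points in the chr2 window, 3.67 points in the chr4 window and 3.16 points in the chr13 window. Adjusted p-values were 0.000188, 3.75e-05 and 0.000131 (two-sided exact permutation tests within genotype, Benjamini-Hochberg over 3 windows). With 200 kb taken off each end of the windows, the chr13 difference was 1.59 points (adjusted p = 0.00445, exact permutation test).

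In the chr2 window, follicular libraries stood at 15.7, 16.5 and 15.7% in DKO, 15.8, 16.7 and 16.2% in Tet2KO, 15.4, 15.97 and 16.8% in Tet3KO and 18.7, 16.7 and 16.6% in WT. Pro-B libraries stood at 16.8, 14.2 and 11.9% in DKO, 14.1, 16.3 and 11.99% in Tet2KO, 11.9 and 10.1% in Tet3KO and 9.15, 12.7 and 13.4% in WT. Follicular and pro-B libraries did not overlap in Tet3KO and WT, and overlapped in DKO and Tet2KO. The means were 15.97 ± 0.461% in follicular DKO and 14.3 ± 2.45% in pro-B DKO (SD, n = 3 each), and 17.3 ± 1.17% in follicular WT and 11.8 ± 2.30% in pro-B WT (SD, n = 3 each).

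In the chr4 window, follicular libraries stood at 39.9, 39.0 and 39.3% in DKO, 39.4, 40.2 and 39.9% in Tet2KO, 39.2, 40.4 and 40.1% in Tet3KO and 39.4, 38.2 and 39.97% in WT. Pro-B libraries stood at 38.9, 36.9 and 33.7% in DKO, 37.6, 38.7 and 35.3% in Tet2KO, 33.1 and 34.0% in Tet3KO and 36.3, 36.9 and 36.3% in WT. Within each of the 4 genotypes the follicular libraries lay above the pro-B libraries without overlap. The widest gap was in Tet3KO, with 39.9 ± 0.622% in follicular cells (SD, n = 3) and 33.6 ± 0.617% in pro-B cells (SD, n = 2), and the follicular minus pro-B difference in WT was 2.71 ± 0.558 points (SE).

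In the chr13 window, follicular libraries stood at 42.0, 41.9 and 41.7% in DKO, 42.7, 41.6 and 42.0% in Tet2KO, 42.6, 43.2 and 41.6% in Tet3KO and 41.0, 40.8 and 41.5% in WT. Pro-B libraries stood at 41.8, 40.8 and 38.4% in DKO, 41.5, 41.9 and 37.2% in Tet2KO, 38.2 and 37.6% in Tet3KO and 34.1, 39.2 and 36.2% in WT. As in the chr2 window, the stages overlapped in DKO and Tet2KO and not in Tet3KO and WT. The WT means were 41.1 ± 0.397% in follicular cells and 36.5 ± 2.53% in pro-B cells (SD, n = 3 each).

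**Figure D1:**
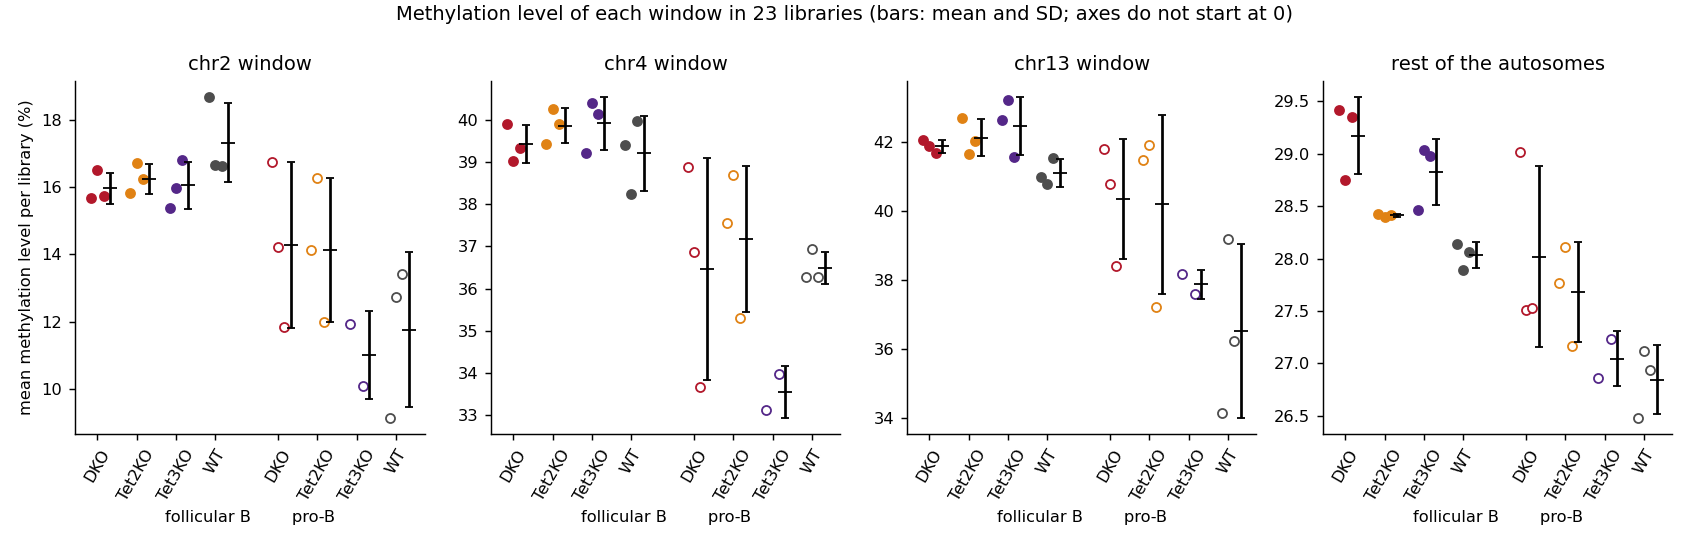
Mean methylation level (%, vertical axis) of each library in the 3 windows and in the rest of the autosomes, by group (horizontal axis, follicular B cells on the left and filled, pro-B cells on the right and open). Points are libraries, bars give the mean and SD, and the axes do not start at 0. Follicular libraries of the chr4 window sit between 38.2 and 40.4% and pro-B libraries between 33.1 and 38.9%.

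The rest of the autosomes was also higher in follicular cells, with 1.16 points for DKO, 0.730 for Tet2KO, 1.78 for Tet3KO and 1.19 for WT. Taken as window minus rest in each library, the follicular minus pro-B difference was 2.38 points for chr2 (adjusted p = 0.00148), 2.46 for chr4 (adjusted p = 3.75e-05) and 1.94 for chr13 (adjusted p = 0.00339, the same exact permutation tests). For chr13 this call was lost under other choices of tiles. With 200 kb taken off each end of the windows the difference was 0.376 points (adjusted p = 0.472), and with each run of neighbouring tiles counted once it was 1.44 points (adjusted p = 0.0691, both exact permutation tests).

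The level of pro-B libraries moved with the number of tiles they covered. Over the 11 pro-B libraries, the number of autosomal tiles with a value and the window level had a Pearson r of 0.894 for chr2 (Spearman rho 0.955, permutation p = 0.000300, adjusted p = 0.00240), 0.825 for chr4 (rho 0.873, p = 0.00192, adjusted p = 0.00768) and 0.776 for chr13 (rho 0.736, p = 0.00536, adjusted p = 0.0143). The rest of the autosomes had r = 0.692 (rho 0.609, permutation p = 0.0168, adjusted p = 0.0336, Benjamini-Hochberg over 8 relations). Without the 2 libraries farthest from the median number of tiles, r was 0.951, 0.728 and 0.848 in the windows and 0.832 in the rest. Within groups r was 0.950, 0.902 and 0.833 in the windows and 0.787 in the rest. Over the 12 follicular libraries r was 0.319 for chr2 (permutation p = 0.273), -0.00624 for chr4 (p = 0.984) and 0.0151 for chr13 (p = 0.963), with rho 0.336, 0.161 and -0.217. In the rest of the autosomes it was -0.572 (rho -0.678, permutation p = 0.0485, adjusted p = 0.0776). These follicular values moved when 2 libraries were left out. Without follicular Tet3KO library 21 and DKO library 24, the 2 farthest from the median number of tiles, r was 0.708 for chr2, 0.323 for chr4, -0.304 for chr13 and -0.442 in the rest. Within follicular groups it was -0.0502, 0.182 and 0.636 in the windows and -0.188 in the rest.

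Follicular libraries covered 400635 to 589065 autosomal tiles, and 6 pro-B libraries reached at least as many, with 408646 to 608211. None of these was from pro-B Tet3KO. On chr2 these 6 pro-B libraries had levels of 12.7 to 16.8% (median 14.2%), the 5 others 9.15 to 11.99% (median 11.9%), and the 12 follicular libraries 15.4 to 18.7% (median 16.4%). With only libraries of at least 400635 tiles, an alternative added after these values had been seen, the stage difference therefore averages DKO, Tet2KO and WT only. It was then 1.92 points for chr2 (adjusted p = 0.019), 1.96 for chr4 (adjusted p = 0.003) and 1.46 for chr13 (adjusted p = 0.0105, exact permutation tests). With all libraries of the same 3 genotypes it was 3.12, 2.78 and 2.68 points (adjusted p = 0.00375, 0.00075 and 0.00263, exact permutation tests). Beyond the rest of the autosomes, the libraries with more tiles gave 1.12 points for chr2 (adjusted p = 0.161), 1.16 for chr4 (adjusted p = 0.006) and 0.668 for chr13 (adjusted p = 0.215, exact permutation tests). All libraries of these 3 genotypes gave 2.09, 1.75 and 1.65 points there (adjusted p = 0.0195, 0.00075 and 0.0353, exact permutation tests). The part of tile number in the stage difference was not tested further.

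**Figure D2:**
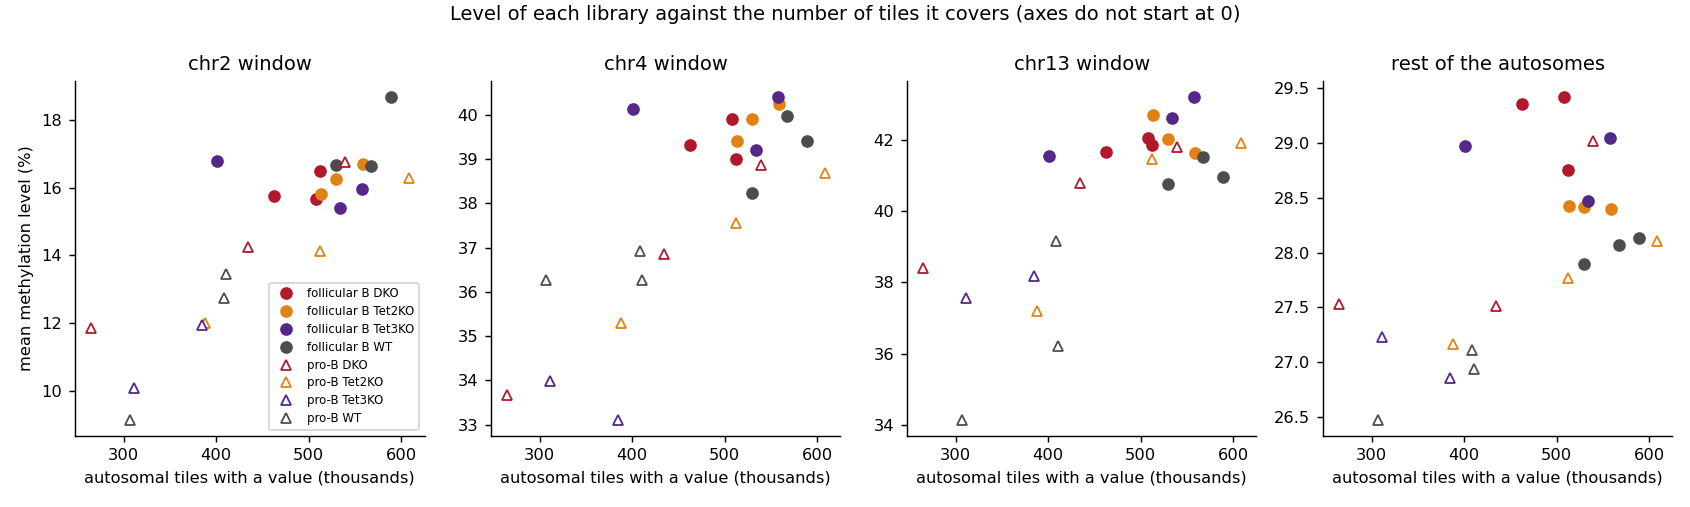
Mean methylation level (%, vertical axis) of each library against the number of autosomal tiles with a value (horizontal axis), for the 3 windows and the rest of the autosomes. Filled circles are follicular B libraries, open triangles pro-B libraries, colours are genotypes, and the axes do not start at 0. The open triangles climb with the number of tiles in each window (r = 0.894, 0.825 and 0.776). The filled circles show r = 0.319, -0.00624 and 0.0151, and 0.708, 0.323 and -0.304 without libraries 21 and 24.

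Loss of Tet2, Tet3 or both moved no window past the test. Averaged over the 2 stages, DKO minus WT was 0.578 points for chr2, 0.0947 for chr4 and 2.30 for chr13, with adjusted p-values of 0.748, 0.925 and 0.27 (two-sided exact permutation tests within stage, Benjamini-Hochberg over 9 comparisons). Tet2KO minus WT was 0.647, 0.671 and 2.35 points, with adjusted p-values of 0.748, 0.45 and 0.338 in the same tests. Tet3KO minus WT was -1.01, -1.11 and 1.37 points, with adjusted p-values of 0.45, 0.439 and 0.439 in the same tests. A p that misses the threshold does not show that the groups were alike. The smallest unadjusted p of the 9 was that of DKO in the chr13 window, an exact permutation p of 0.03. Without pro-B WT library 2 it was 2.96 points with an adjusted p of 0.045 (exact permutation test), and over all libraries left out in turn it ranged from 1.70 to 2.96 points.

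Within follicular cells, where 3 against 3 libraries allow no exact p under 0.1, differences in the chr13 and chr2 windows had opposite signs. In the chr13 window each knockout lay above WT without overlap, with a DKO difference of 0.774 ± 0.255 points, a Tet2KO difference of 1.03 ± 0.385 and a Tet3KO difference of 1.37 ± 0.534 (SE, exact permutation p = 0.1 each). In the rest of the autosomes each knockout also exceeded WT without overlap, by 1.14 points for DKO, 0.379 for Tet2KO and 0.795 for Tet3KO. In the chr2 window DKO lay below WT without overlap, with a difference of -1.35 ± 0.726 points (exact permutation p = 0.1), and Tet2KO and Tet3KO had differences of -1.07 ± 0.722 and -1.27 ± 0.789 points with overlap (exact permutation p = 0.3 each). The 3 contrasts share the WT libraries. The chr4 window had differences of 0.212 ± 0.575 points for DKO, 0.652 ± 0.566 for Tet2KO and 0.711 ± 0.626 for Tet3KO (SE), with overlap in each.

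In pro-B cells the spread between libraries was wider. The chr2 difference was 2.50 ± 1.94 points for DKO and 2.36 ± 1.81 for Tet2KO, and the chr13 difference 3.82 ± 1.77 for DKO and 3.68 ± 2.09 for Tet2KO (SE), all with overlap between knockout and WT libraries. Pro-B Tet3KO lay below WT without overlap in the chr4 window, where the difference was -2.94 ± 0.489 points (SE) and the exact permutation p was 0.1 (n = 2 and 3). Both of these Tet3KO libraries were among the 5 pro-B libraries with fewest tiles. Follicular less pro-B, the chr2 DKO difference was -3.85 points (exact permutation p = 0.075, adjusted p = 0.33) and the chr4 Tet3KO difference 3.65 points (exact permutation p = 0.02, adjusted p = 0.18), and none of 9 such tests, added after the data were seen, passed at 0.05.

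Set against the rest of the autosomes, where follicular DKO was 1.14 ± 0.224 points above WT without overlap, none of 9 knockout differences passed either. Window minus rest, DKO differed from WT by -0.580 points for chr2, -1.06 for chr4 and 1.14 for chr13 (adjusted p = 0.733, 0.281 and 0.423, exact permutation tests over both stages). In follicular cells alone, the chr2 window relative to the rest was lower than in WT with differences of -2.49 ± 0.788 points for DKO, -1.44 ± 0.680 for Tet2KO and -2.06 ± 0.693 for Tet3KO (SE), each without overlap and each with the smallest exact permutation p that the design allows, 0.1. Relative to the rest, the chr4 and chr13 windows overlapped with WT in each follicular knockout. The chr13 differences were -0.368 ± 0.312 points for DKO, 0.647 ± 0.364 for Tet2KO and 0.577 ± 0.563 for Tet3KO (SE).

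Tiles of intermediate level were taken on their own, since tiles near 0 or 100% can hardly move both ways. There were 118 of them in the 3 windows and 12805 in the rest of the autosomes. In the rest, they averaged 55.5 ± 2.09% in follicular DKO, 51.8 ± 0.0383% in Tet2KO, 54.0 ± 1.78% in Tet3KO and 49.9 ± 0.683% in WT (SD, n = 3 each). In the chr4 window they averaged 53.8 ± 1.73% in follicular DKO, 56.2 ± 0.987% in Tet2KO, 56.0 ± 1.67% in Tet3KO and 54.2 ± 2.06% in WT (SD, n = 3 each). The DKO libraries thus lay above WT in the rest without overlap, and overlapped with WT in the chr4 window. With only intermediate tiles in window and rest, DKO minus WT in the chr4 window was -5.46 points relative to the rest and Tet3KO minus WT -5.13 points (adjusted p = 0.045 each, exact permutation tests over 9 comparisons). These 2 calls were close to the threshold. With each of 23 libraries left out in turn, the DKO difference ranged from -6.46 to -4.40 points. It passed in 14 cases, with adjusted p-values of 0.0225 to 0.09 (exact permutation tests). The Tet3KO difference ranged from -5.60 to -4.55 points and passed in 16 (exact permutation tests). Libraries of a genotype outside a comparison do not enter its difference. Leaving those out could change only the adjustment, so not all of the 23 cases probe a call. With only libraries of at least 400635 tiles the DKO difference was -3.82 points (adjusted p = 0.225, exact permutation test). The Tet3KO difference could not be set beside it, since no pro-B Tet3KO library has that many tiles.

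In the chr2 window intermediate tiles averaged 34.0 ± 3.25% in follicular DKO and 37.5 ± 3.08% in WT, and in the chr13 window 56.3 ± 0.616% in DKO and 55.6 ± 0.796% in WT (SD, n = 3 each). Relative to the rest, DKO minus WT at intermediate tiles was -4.70 points for chr2 (adjusted p = 0.383) and 0.0347 points for chr13 (adjusted p = 0.995, exact permutation tests over both stages). Over the 3 windows together, intermediate tiles differed between DKO and WT by 1.84 points (adjusted p = 0.555), between Tet2KO and WT by 4.18 points (adjusted p = 0.26) and between Tet3KO and WT by -1.35 points (adjusted p = 0.555, exact permutation tests over 4 comparisons).

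The same 118 tiles rose by 10.95 points in follicular over pro-B cells (adjusted p = 0.00035, exact permutation test). By group they stood at 51.0 ± 1.38% in follicular DKO and 43.8 ± 7.63% in pro-B DKO, and at 51.7 ± 1.499% in follicular WT and 39.4 ± 4.04% in pro-B WT (SD, n = 3 each). Over DKO, Tet2KO and WT alone the rise was 8.49 points (adjusted p = 0.00525), and with only the libraries of at least 400635 tiles in these 3 genotypes it was 5.36 points (adjusted p = 0.028, exact permutation tests). Intermediate tiles in the rest of the autosomes also rose, by 5.86 points in DKO, 3.57 in Tet2KO, 10.01 in Tet3KO and 6.41 in WT. Relative to the rest, the rise at intermediate tiles was 4.63 points for chr2, 3.66 for chr4 and 6.58 for chr13. Adjusted p-values were 0.0179, 0.00904 and 0.0104 (exact permutation tests over all 4 genotypes). With each of 23 libraries left out in turn, the chr2 call passed in 21 cases, with an adjusted p of up to 0.0535 (exact permutation tests). The chr4 and chr13 calls passed in 23. For this rise relative to the rest, no value over only the libraries of at least 400635 tiles is given here.

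**Figure D3:**
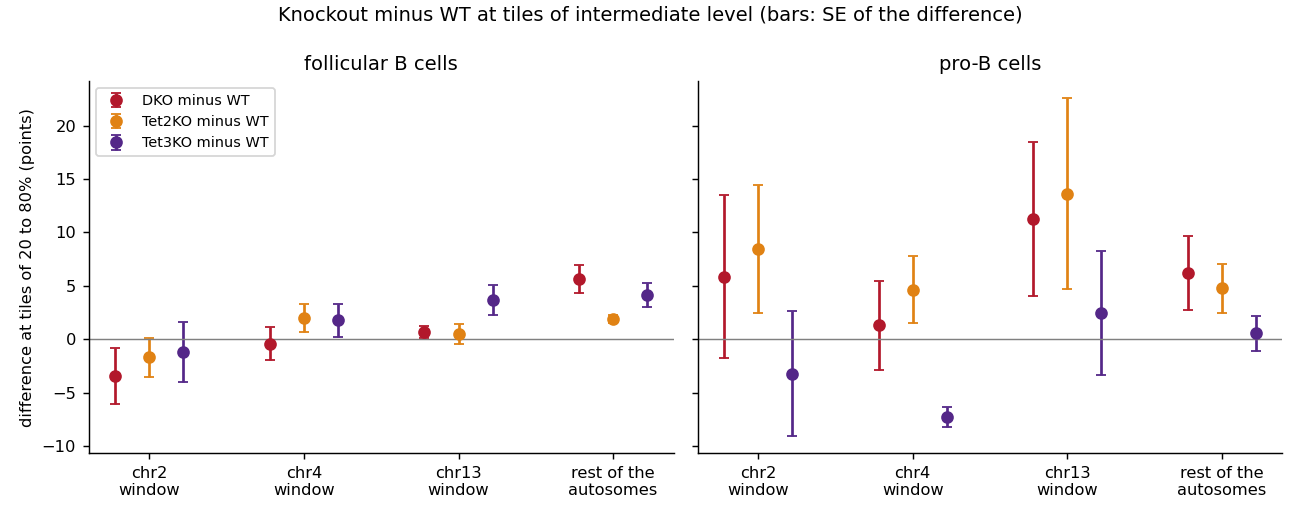
Difference between each knockout and WT (percentage points, vertical axis) at tiles of 20 to 80% in the 3 windows and in the rest of the autosomes, for follicular B cells (left) and pro-B cells (right). Points are differences of group means and bars their SE. In follicular DKO the rest of the autosomes sits at 5.64 points and the chr4 window at -0.416 points.

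Single tiles were tested in a limma fit over the 200813 autosomal tiles that had a value in 2 or 3 libraries of each group, and 797 of them lay in the windows (140 on chr2, 433 on chr4 and 224 on chr13). A tile was called at an adjusted p under 0.05 (Benjamini-Hochberg over all tiles) and a difference of at least 20 points. In follicular cells 0 of 797 window tiles were called for DKO, Tet2KO or Tet3KO against WT. Over all tiles the share called was 0.128% higher and 0.000996% lower for DKO, 0.00299% and 0% for Tet2KO, and 0.00996% and 0% for Tet3KO. At an unadjusted p under 0.05 in limma, 34 window tiles passed for DKO, 29 for Tet2KO and 25 for Tet3KO, or 4.27, 3.64 and 3.14%, against 5.82, 2.87 and 3.96% of all tiles. The share varied by window, with no test between them. For Tet2KO 12 of 140 chr2 tiles passed (8.57%, 10 of them lower than WT), against 1.62% of chr4 tiles and 4.46% of chr13 tiles.

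Tiles without overlap between 3 and 3 follicular libraries were counted by direction, with no test between windows. For DKO against WT, 4 of 132 chr2 tiles were higher and 12 lower, 20 of 417 chr4 tiles higher and 18 lower, and 14 of 217 chr13 tiles higher and 9 lower. Over all tiles 6.99% were higher and 2.44% lower. In the 3 windows together 4.96% were higher and 5.09% lower.

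In pro-B cells 1 window tile was called higher and 1 lower for DKO against WT (0.187% and 0.0438% of all tiles), 0 for Tet2KO (0.0558% and 0.0129% of all tiles), and 1 higher and 2 lower for Tet3KO (0.164% and 0.257% of all tiles). At an unadjusted p under 0.05 in limma, 99 window tiles (12.4%) passed for DKO, 71 (8.91%) for Tet2KO and 105 (13.2%) for Tet3KO, against 8.83, 6.76 and 10.3% of all tiles. The tile called higher in both pro-B DKO and Tet3KO was chr4:147766901-147767000. It had 64.3 and 100% in the 2 pro-B DKO libraries that covered it and 85.7 and 81.8% in pro-B Tet3KO, against 0 and 0% in pro-B WT (limma adjusted p = 0.0149 and 0.00791). The 12 follicular libraries had 52.5 to 87.2%, so the pro-B WT libraries alone stood apart. The read depth behind these values of 0 was unknown.

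Between the stages, 19 of 21 calls in the windows were higher in follicular cells. For DKO 3 tiles were higher and 1 lower (0.139% and 0.0294% of all tiles), for Tet2KO 0 and 1 (0.0364% and 0.0199% of all tiles), for Tet3KO 11 and 0 (0.379% and 0.0378% of all tiles) and for WT 5 and 0 (0.133% and 0.0473% of all tiles). Higher calls thus outnumbered lower ones over all tiles too, in each genotype, so this direction is not particular to the windows. The Tet3KO calls were 1.38% of the window tiles and the WT calls 0.627%. These calls fell on 16 tiles, 2 on chr2, 11 on chr4 and 3 on chr13. The 25 calls named under the rule include calls between stages and calls of pro-B knockouts against WT. These 25 depended on the spread shared by the 8 groups, since with only the 2 groups of a contrast fitted none of them passed in limma. With a library left out in turn, 14 to 25 of the 25 passed, fewest without follicular WT library 13. With strata of sex and age as a block, 13 of the 25 passed.

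Of WT tiles without overlap between the stages, 101 of 654 window tiles (15.4%) were higher in follicular cells and 33 (5.05%) lower, against 9.28% higher and 4.85% lower over all tiles. The median difference over all tested window tiles was 3.31 points on chr2, 0.395 on chr4 and 0.903 on chr13, against 0.0416 in the rest of the autosomes. The chr2 window had 21.7% higher and 1.74% lower, the chr4 window 16.5% and 7.00%, and the chr13 window 9.34% and 3.30%.

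Tile chr4:146498901-146499000 was called between the stages in DKO, Tet3KO and WT. Follicular libraries had 31.98, 28.1 and 24.7% in DKO, 16.9, 31.5 and 26.0% in Tet2KO, 25.3, 27.95 and 30.3% in Tet3KO and 28.8, 22.9 and 27.4% in WT. Pro-B libraries had 10.4, 7.27 and 3.84% in DKO, 12.6, 14.2 and 11.5% in Tet2KO, 9.62, 7.41 and 2.72% in Tet3KO and 4.31, 4.82 and 7.73% in WT. All 12 follicular libraries lay above all 12 pro-B libraries. The difference in WT was 20.8 ± 3.37 points (SE, limma adjusted p = 0.0117). In Tet2KO, where it averaged 24.8% in follicular cells and 12.7% in pro-B cells, it was not called.

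A second chr4 tile, chr4:145953501-145953600, had a like pattern. It averaged 31.7 ± 2.02% in follicular DKO and 8.80 ± 2.37% in pro-B DKO, and 30.9 ± 4.95% in follicular WT and 6.86 ± 1.39% in pro-B WT (SD, n = 3 each). The limma adjusted p was 0.0327 in DKO and 0.0308 in WT. Its follicular libraries ranged from 26.3 to 36.2% and its pro-B libraries from 0.794 to 25.0%, with the highest in library 8.

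On chr2, tile chr2:177037901-177038000 averaged 34.0 ± 2.75% in follicular Tet3KO (SD, n = 3) and 5.36 ± 2.53% in pro-B Tet3KO (SD, n = 2), and 44.0 ± 2.05% in follicular WT and 11.8 ± 5.61% in pro-B WT (SD, n = 3 each). It was called in both genotypes (limma adjusted p = 0.0405 and 0.0183), but the Tet3KO call was lost in 19 of 29 alternatives and the WT call in 3. In DKO and Tet2KO it averaged 36.7 and 38.2% in follicular cells and 22.7 and 18.4% in pro-B cells, and was not called.

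Tile chr2:175799701-175799800 had 26.1, 18.4 and 15.7% in follicular WT and 0% in each of 3 pro-B WT libraries (limma adjusted p = 0.0125). In DKO it had 2.91, 6.25 and 9.73% in follicular libraries and 20, 11.6 and 12.6% in pro-B libraries, so the order of the stages was turned round there. That difference between genotypes was not tested.

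A tile that fell was chr13:66936101-66936200. It averaged 68.1 ± 4.24% in follicular DKO (SD, n = 3) and 90.0 ± 6.75% in pro-B DKO (SD, n = 2), and 67.9 ± 2.62% in follicular Tet2KO and 90.0 ± 2.30% in pro-B Tet2KO (SD, n = 3 each). The differences were -21.9 ± 3.47 points (limma adjusted p = 0.0106) and -22.1 ± 3.11 points (limma adjusted p = 0.00921). In WT it averaged 64.6 ± 3.62% in follicular cells and 71.5 ± 4.31% in pro-B cells and was not called.

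**Figure D4:**
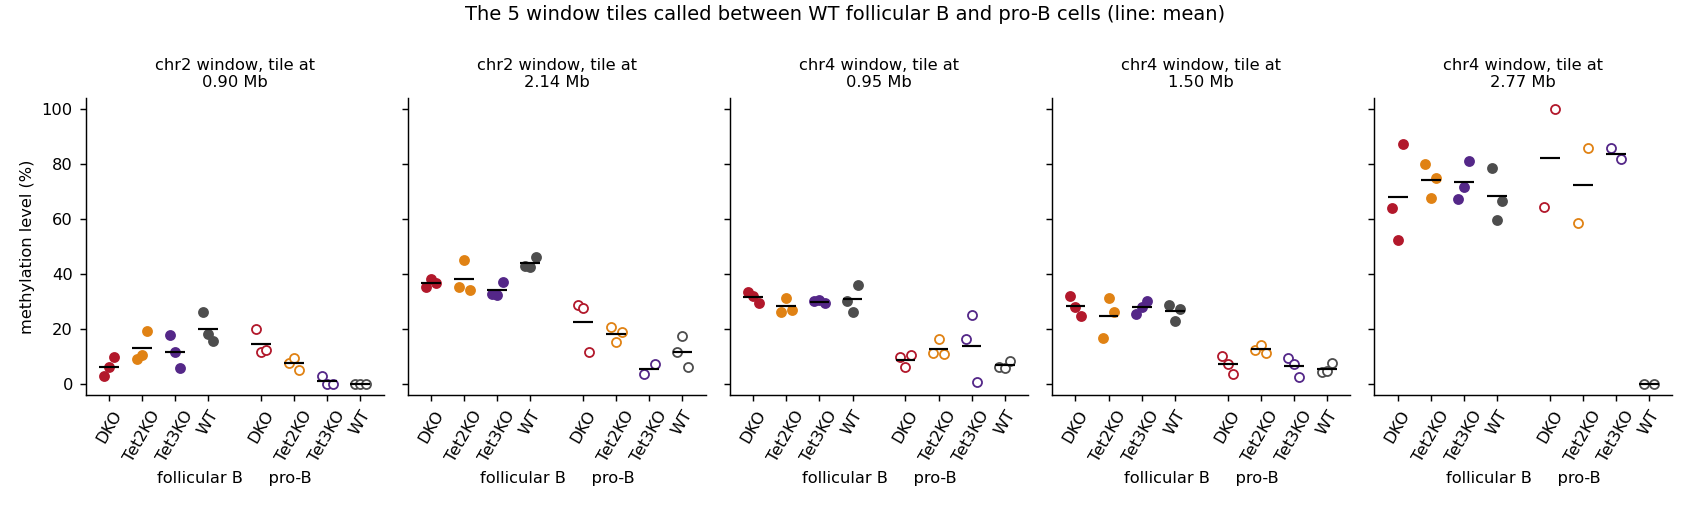
Methylation level (%, vertical axis) of the 5 window tiles called between WT follicular B and pro-B cells, in every library with a value, by group (horizontal axis, follicular filled on the left and pro-B open on the right). Points are libraries and lines group means, and each panel gives the distance of its tile from the start of the window. At the chr4 tile called in DKO, Tet3KO and WT, at 1.5 Mb from the start, all follicular points lie between 16.9 and 31.98% and all pro-B points between 2.72 and 14.2%.

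Among tiles with 3 libraries in both WT groups, the largest WT stage differences without overlap on chr4 and chr13 were at tiles with a wide spread in pro-B cells. Tile chr13:67993701-67993800 had 65.5, 65.8 and 69.0% in follicular WT and 0, 15.7 and 0% in pro-B WT, and chr4:145694101-145694200 had 77.9, 66.2 and 66.2% in follicular WT and 0, 19.3 and 0% in pro-B WT (limma adjusted p = 0.196 and 0.0696). In pro-B knockouts the chr13 tile had 77.9, 9.09 and 0% in DKO and 67.6, 48.8 and 0% in Tet2KO, and the chr4 tile 60.5, 1.76 and 0% in DKO and 23.7, 36.8 and 0% in Tet2KO. At both tiles the 3 highest pro-B values were in Tet2KO libraries 4 and 5 and DKO library 10, which were also the 3 pro-B libraries with most tiles. The part of tile number in this pattern was not tested.

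Along the windows the level was far from even. In the chr4 window the 500 kb bins of the first 2.0 Mb averaged 46.0, 48.8, 41.2 and 65.6%. The bins after it averaged 26.0 and 14.3%, over 69 and 60 tiles with a value in all 23 libraries. In WT the follicular minus pro-B difference was 6.16 points in the second bin of the window and 0.391 points in the last. In the chr2 window bins averaged 8.64 to 22.8% (11 to 27 tiles each), and the WT stage difference was largest between 2.0 and 2.5 Mb, with 28.2 ± 2.84% in follicular WT and 16.9 ± 5.02% in pro-B WT (SD, n = 3 each, 11 tiles).

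In the chr13 window bins averaged 13.4 to 66.2%, the highest over 10 tiles. Its last bin held 40 tiles and averaged 54.2 ± 0.741% in follicular DKO and 47.9 ± 5.93% in pro-B DKO, and 52.7 ± 1.29% in follicular WT and 43.5 ± 5.48% in pro-B WT (SD, n = 3 each). This bin holds the tiles at chr13:67993701-67993900 and lies partly in the 200 kb taken off above.

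**Figure D5:**
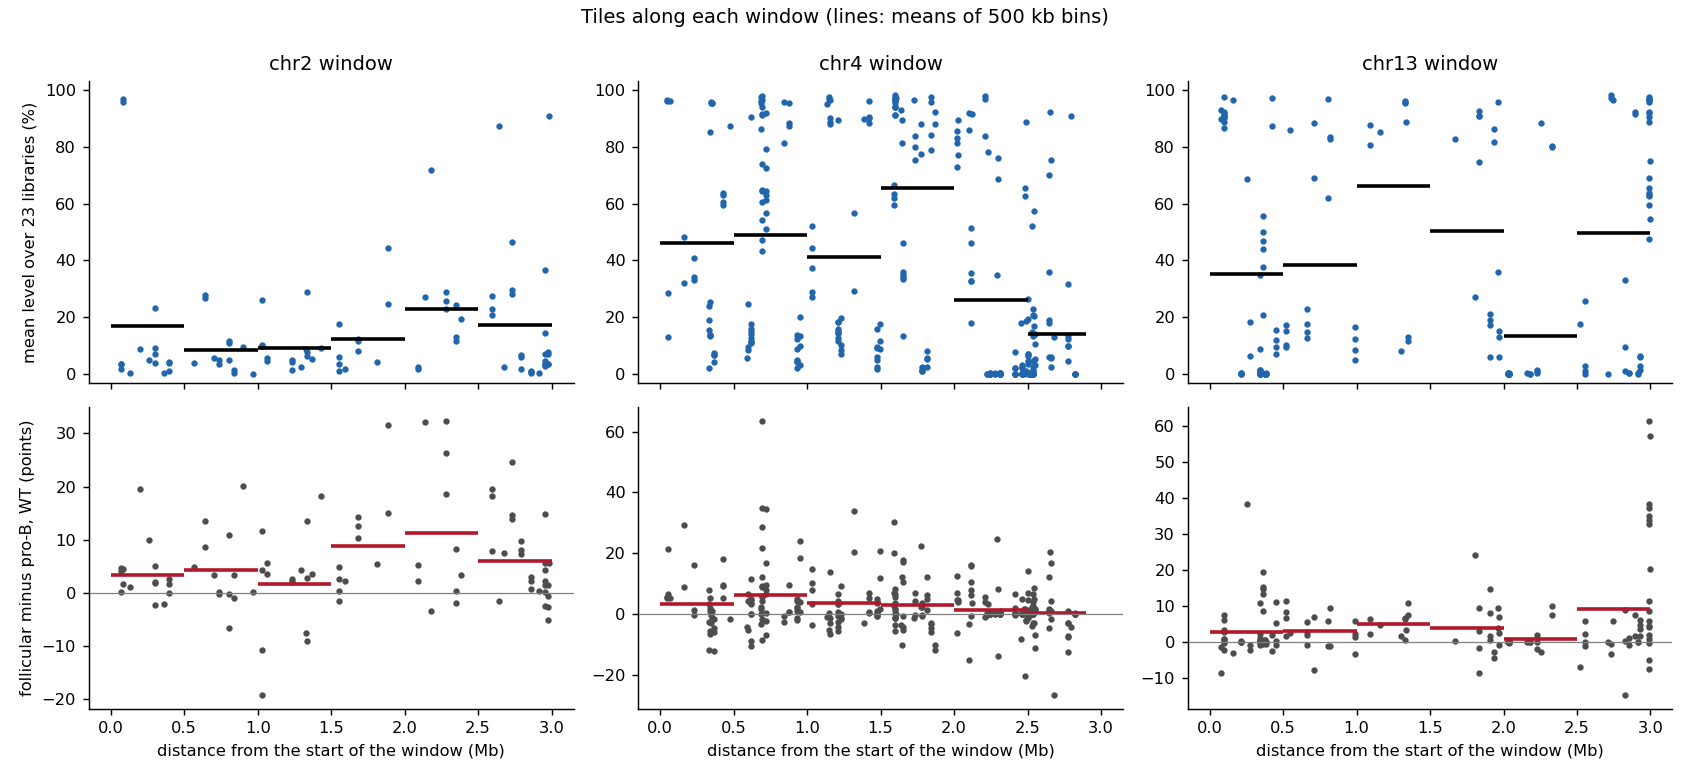
Mean level of each window tile over 23 libraries (%, upper row) and its follicular minus pro-B difference in WT (percentage points, lower row) against the distance from the start of the window (Mb). Points are tiles and lines are means of 500 kb bins. In the chr4 window the bins step down to 26.0 and 14.3% at the far end, and in the chr13 window the last bin has the largest WT difference, 9.13 points.

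Runs of neighbouring tiles, joined within 500 bp, showed both extremes inside a window. In the chr13 window 11 tiles at chr13:67033501-67034700 had group means of 0.0149 to 0.298%, and 9 tiles at chr13:65097401-65098300 had group means of 89.2 to 92.3%. The first run thus stayed near 0 and the second near the top of the scale in all 8 groups. The longest chr13 run, 15 tiles at chr13:65341901-65343700, averaged 4.59 ± 1.18% in follicular DKO and 2.78 ± 0.745% in follicular WT (SD, n = 3 each), with overlap between the libraries.

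In the chr4 window 11 tiles at chr4:145722101-145723300 averaged 73.5 ± 2.12% in follicular DKO and 63.7 ± 8.84% in pro-B DKO, and 73.5 ± 3.37% in follicular WT and 64.9 ± 4.91% in pro-B WT (SD, n = 3 each). In Tet3KO they averaged 75.8 ± 3.72% in follicular cells (SD, n = 3) and 59.8 ± 3.09% in pro-B cells (SD, n = 2). Follicular libraries ranged from 69.9 to 79.6% and pro-B libraries from 53.7 to 70.6%, so that the stages overlapped by a narrow margin. The longest chr4 run, 13 tiles at chr4:147533201-147535200, lay low, with group means of 2.88 to 7.06%. Means of runs include library 8 where it had a value. The lowest mean here was that of pro-B Tet3KO, with libraries 7, 8 and 9 at 6.22, 0 and 2.42%.

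The longest chr2 run, 10 tiles at chr2:177853601-177855000, averaged 17.7 ± 1.14% in follicular DKO and 22.1 ± 2.39% in pro-B DKO, and 21.5 ± 1.95% in follicular WT and 12.8 ± 5.27% in pro-B WT (SD, n = 3 each). The stages thus stood in opposite order in DKO and WT, a difference between genotypes that was not tested. The most methylated chr2 run, 4 tiles at chr2:176878801-176879200, went against its window. It averaged 84.1 ± 2.05% in follicular Tet2KO and 95.4 ± 1.17% in pro-B Tet2KO, and 88.6 ± 2.11% in follicular WT and 97.5 ± 3.30% in pro-B WT (SD, n = 3 each), without overlap in either genotype. The runs were not tested on their own.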

How the data were processed

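Methylation was measured by RRBS in 24 mouse libraries, 3 in each of 8 groups by the titles, and 16 RNA samples were not analysed here. The deposited table gives the methylation fraction of 100 bp tiles in each library, as the authors computed it, with no read counts. The submitters' processing notes list methylKit and Trim Galore without versions, with builds mm9 and hg19, and the mouse tiles were read as mm9. The aligner, coverage minimum, conversion rate and treatment of reads with several matches are not given in the sources used here. RefSeq promoters are of GRCm38.p6 and gave names, neighbours and sequences only.

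Fractions were multiplied by 100 to give percent. A library's level in a window is the mean over tiles with a value in all 23 libraries other than pro-B Tet3KO library 8. Genotypes were compared by two-sided exact permutation within stage and stages within genotype, and correlations had 100000 permutations. Tiles were tested with limma 3.58.1 (R 4.3.3, trended prior) in a fit of 8 groups over the 200813 autosomal tiles that had a value in 2 or 3 libraries of each group. Python 3.11.15 and numpy 2.4.6 were used for the rest. Tiles were named if called in any contrast, up to 10 in each, together with the largest without overlap, and runs of tiles were named by size and by highest and lowest level. Both procedures were tested on simulated data. Members were taken by position only, but the members, lists and tests were set with earlier results of these data known. Alternatives were other tile sets, medians, logit levels, segments, shortened windows, sex, a replicate block and each library left out in turn. No 2 libraries held identical values. Exact p-values cover the spread between libraries only.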

Additional observations from a re-analysis of the deposited data

Results flagged for a closer look

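At 8 of 30 named tiles and 2 of 15 named runs, the same difference had opposite signs in 2 pairs of groups. In neither pair did the libraries of the groups compared overlap. None of these differences between groups was tested, and the tiles had been named for the size of their differences.

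Follicular minus pro-B cells stood in opposite directions in a knockout and in WT at 6 tiles. At chr2:175799701-175799800 the difference was -8.44 points in DKO and 20.05 in WT. At chr4:146562301-146562400 it was 33.5 points in DKO and -4.69 in WT, with 2 pro-B libraries in each. For Tet3KO, with values in 2 pro-B libraries at each tile, the difference was -10.3 points against 68.3 in WT at chr4:147766901-147767000, and 36.5 points against -11.1 in WT at chr4:145427201-145427300. It was -41.5 points in Tet3KO against 26.8 in WT at chr2:177854801-177854900, and -21.4 points against 46.6 at chr4:147449201-147449300.

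Knockout minus WT stood in opposite directions in follicular and pro-B cells at 3 tiles. For DKO at chr2:175799701-175799800 it was -13.8 points in follicular cells and 14.7 in pro-B cells. For Tet3KO it was 21.5 points in follicular cells and -56.04 in pro-B cells at chr4:147696401-147696500, and 11.8 and -20.9 points at chr4:147658601-147658700.

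The run of 10 tiles at chr2:177853601-177855000 had a follicular minus pro-B difference of -4.39 points in DKO and 8.63 in WT, so that DKO minus WT was -3.79 points in follicular cells and 9.23 in pro-B cells. The run of 10 tiles at chr4:145617001-145618100 had a DKO minus WT difference of 2.52 points in follicular cells and -4.49 in pro-B cells, and a Tet3KO minus WT difference of 3.04 and -10.3 points, where library 8 stood at 1.85%.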

How the results depend on the processing

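The follicular minus pro-B difference of the windows kept its direction and its call in 96 of 96 alternatives, with ranges of 3.27 to 3.91 points (chr2), 3.32 to 3.98 (chr4) and 2.78 to 3.49 (chr13) when a library was left out. For chr13 it was 1.59 with shortened windows. Beyond the rest of the autosomes, the chr13 call was lost with segments counted once (1.44) and shortened windows (0.376), and with only libraries of at least 400635 tiles, which leaves out Tet3KO, the calls were lost for chr2 (1.12) and chr13 (0.668). All libraries of those 3 genotypes gave 2.09 and 1.65, both called. The cause was not tested.

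Knockout differences near 0 turned round, none of them called. With the 24-library tile set they were -0.501 (chr2 DKO), -1.24 (chr2 Tet2KO), -0.104 (chr4 DKO) and -0.608 (chr4 Tet2KO), and against the rest -1.61 (chr2 Tet2KO) and -0.975 (chr4 Tet2KO). With medians they were -0.303 (chr4 Tet2KO), and against the rest 0.234 (chr2 DKO), 0.270 (chr4 DKO) and -0.812 (chr4 Tet2KO). Against the rest, chr2 Tet2KO was -0.347 with the wide tile set, -0.478 with segments and -0.120 with deeper libraries. There, chr4 Tet2KO was -0.0320 on the log2 logit scale, -0.251 with segments and -0.0137 with intermediate tiles only, and chr13 Tet3KO was -0.0936 with the wide set. With intermediate tiles only, chr4 DKO (-5.46) and Tet3KO (-5.13) passed.

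With a library left out, chr2 DKO ranged from -0.0782 to 1.18, chr2 Tet2KO from -0.00941 to 1.18, chr4 DKO from -0.508 to 0.796 and chr13 DKO from 1.70 to 2.96, which passed without pro-B WT library 2. Against the rest, chr2 Tet2KO ranged from -0.526 to 0.445 and chr4 Tet2KO from -0.209 to 0.406. Intermediate tiles in DKO ranged from -0.0358 to 3.78.

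Counts of called tiles were small and moved. With only the 2 groups fitted, pro-B DKO and Tet3KO had 0 higher and 0 lower, stage DKO 0 and 0, stage Tet2KO 0 lower, stage Tet3KO 0 higher and stage WT 2 higher. On the logit scale, pro-B DKO had 2 lower, pro-B Tet3KO 2 higher, stage DKO 0 higher and stage Tet3KO 1 lower. With sex in the fit, pro-B DKO had 0 lower and stage Tet3KO 6 higher. With libraries centred, stage DKO had 1 higher, Tet2KO 0 lower, Tet3KO 31 higher and 1 lower, and WT 1 higher. At 30 points, pro-B Tet3KO had 1 lower, stage DKO 1 higher and 0 lower, Tet2KO 0 lower, Tet3KO 6 higher and WT 2 higher. With the 24-library tile set, pro-B DKO had 0 and 0, pro-B Tet3KO 0 and 0, stage DKO 0 lower, Tet2KO 0 lower, Tet3KO 2 higher and WT 3 higher. That set held 83 of the 797 tested window tiles, so calls at the other tiles could not appear in it. Of the named calls 7 lay at its tiles, and 7 of these 7 passed.

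With a library left out, pro-B DKO had 1 to 5 higher and 0 to 6 lower, Tet2KO 0 to 5 and 0 to 1, and Tet3KO 1 to 6 and 2 to 15. Between stages, DKO had 1 to 9 higher and 0 to 2 lower, Tet2KO 0 to 1 and 1 to 2, Tet3KO 5 to 25 and 0 to 1, and WT 1 to 7 and 0 to 2. In follicular knockouts against WT the count stayed at 0.

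Over the 5 pairs of libraries that sex and age single out, deviations correlated weakly (r from -0.106 to 0.196 over window tiles), which does not show whether mice were shared. With sex and age strata as a replicate block, the stage differences were 3.61 (chr2), 3.61 (chr4) and 3.06 (chr13). The tile counts under the replicate block were 0 lower for pro-B DKO, 1 lower for pro-B Tet3KO, 1 higher and 0 lower for stage DKO, 0 lower for stage Tet2KO and 2 higher for stage WT. The calls lost under it include those at chr2:177037901, chr2:175799701, chr4:145953501 and chr13:66936101. The 24-library set and medians were not run for intermediate tiles. Without read counts, no interval per tile could be given.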
